A study of Homo sapiens with 6 samples.

Results

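In a table of 58735 genes from Panc-1, an established human pancreatic cancer line of epithelial type, 10 genes of the WNT signalling pathway were followed by name. They are the ligands WNT5A and WNT5B, the receptor-removing ubiquitin ligases RNF43 and ZNRF3, the scaffolds AXIN1 and AXIN2, the dishevelled-binding inhibitor NKD1, and the DNA-binding factors TCF7, TCF7L2 and LEF1. All 10 names were found, each on 1 row. RNA had been taken from Panc-1 labelled wild type after 72 h beside cancer-associated fibroblasts (CAF), in 3 libraries, or beside CAF labelled as overexpressing PAI-1, in the other 3. The column heads of the first group carry the suffix NC with no meaning attached in the labels. The labels place the overexpression in the fibroblasts. The sources used here do not say how the fibroblasts were obtained, how many lines they came from or how the cell types were separated before extraction. In bulk RNA, fewer cells of a type and less RNA per cell cannot be told apart.

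WNT proteins are secreted lipid-modified ligands. In the canonical branch, a ligand bound to a Frizzled receptor and an LRP co-receptor stops a destruction complex built on AXIN1, so that beta-catenin accumulates and joins TCF and LEF factors on DNA. Among the genes this switches on are inhibitors of the pathway itself: AXIN2 rebuilds the destruction complex, RNF43 and ZNRF3 remove Frizzled from the membrane unless R-spondin holds them back through LGR receptors, and NKD1 acts on dishevelled. WNT5A and WNT5B mostly use a branch without beta-catenin, through ROR and RYK receptors and planar polarity proteins. In pancreatic cancer RNF43 is a known tumour suppressor, whose loss makes cells depend on WNT ligands.

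The libraries held 13628508 to 16006880 counts, so that 3 counts corresponded to 0.182 to 0.218 CPM, the level used throughout after TMM scaling of the libraries. PAI-1 replicate 2 stood apart, with a chi-square per degree of freedom of 9.51 and 6.63 against its 2 group partners, which had 3.39 between them. The share of mitochondrial counts was 5.53%, 5.81% and 5.92% in the CAF libraries and 5.12%, 3.78% and 4.76% in the PAI-1 libraries, lower in every PAI-1 library. The extraction text of the labels names another cell line, Cal27, and also Stattic. Neither is mentioned in the sample titles. Of 10 squamous markers, 8 stayed under 1 CPM in every library. KRT5, KRT14, KRT6A and DSG3 together had 4 counts in the CAF group and 1 in the PAI-1 group. TP63 and DSC3, also on that list, had 35 and 30 counts in the CAF group and 15 and 19 in the PAI-1 group. The squamous list summed to 84.4 to 93.5 CPM in the CAF group and 136 to 158 CPM in the PAI-1 group, nearly all of it SFN, which rose from 86.1 to 142 CPM. The 10 epithelial markers summed to 2085 to 2201 CPM in the CAF group and 2306 to 2569 CPM in the PAI-1 group. KRT8, KRT18, KRT19 and KRT7 rose and CLDN4 fell (KRT8 was not called with library size alone or when CAF replicate 1 or 3 or PAI-1 replicate 3 was left out, edgeR adjusted p up to 0.166), while EPCAM at 7.06 CPM and CDH1 at 1.67 CPM in the CAF group were low and ESRP1 and OVOL1 were under 1 CPM in every library. Fibroblast contents of the libraries were gauged from 7 defining genes, namely PDGFRA, PDGFRB, COL1A2, LUM, DCN, POSTN and FAP, which summed to 13 counts over the CAF libraries and 9 over the PAI-1 libraries. Over the whole list of 16 fibroblast markers the summed level was 353 to 381 CPM in the CAF group and 423 to 445 CPM in the PAI-1 group. COL1A1, which rose from 186 to 257 CPM, and FBLN1, at 116 and 109.96 CPM, made up most of this. SPARC, another of the 16, fell from 7.57 to 2.68 CPM. In the CAF and PAI-1 groups MMP2 was at 47.3 and 51.2 CPM and COL3A1 at 5.22 and 6.44 CPM. TAGLN was at 5.54 and 5.38 CPM and COL6A3 at 2.42 and 2.81 CPM, and none of these 4 was called. The other 9, which are the 7 above with THY1 and ACTA2, stayed under 1 CPM in every library. The part of the mitochondrial share and of these markers in the results was not tested.

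Of the 10 genes, 4 fell and 1 rose. The filter on low counts was passed by 9, of which AXIN2, RNF43, TCF7L2 and WNT5A fell beside CAF overexpressing PAI-1, ZNRF3 rose, and AXIN1, WNT5B, TCF7 and LEF1 did not pass the test. NKD1 was too low to be tested. "Fell" and "rose" mean an adjusted p under 0.05 in edgeR's quasi-likelihood test over all 14960 genes tested, and log2 fold changes are the PAI-1 group minus the CAF group. Of all genes tested, 32.2% changed, 17.2% higher and 15.0% lower, and the groups did not overlap for 43.4%. Among the 9 genes tested here, 5 changed and the same number had groups that did not overlap. The median log2 fold change was -0.32 over these 9 and -0.0015 over all genes tested. The median of the 9 is the value of LEF1, a gene of few counts, and lay between -0.66 (without PAI-1 replicate 1) and -0.11 (without PAI-1 replicate 3) when single libraries were left out. It was -0.56 without CAF replicate 1, -0.11 without CAF replicate 3 and -0.12 without PAI-1 replicate 2. The genes were named with earlier results of these data known, so these counts are descriptions. Without PAI-1 replicate 2, the library that stood apart, the log2 fold changes were -1.57 for AXIN2, -1.25 for RNF43, -0.65 for TCF7L2, -0.57 for WNT5A and 0.47 for ZNRF3, and all 5 were called.

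**Figure D1:**
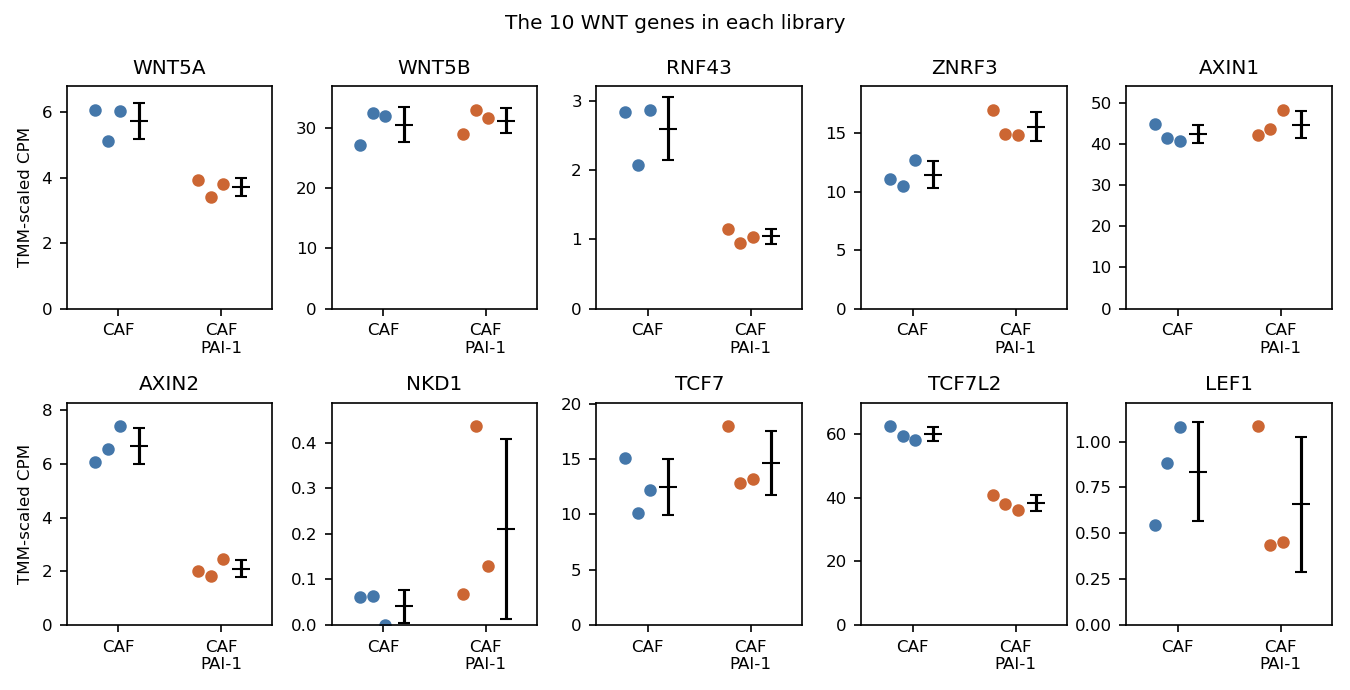
TMM-scaled CPM (vertical axes, each starting at 0) of the 10 genes in 3 CAF libraries (blue) and 3 libraries with CAF overexpressing PAI-1 (orange), with the mean and SD over 3 libraries in black. The groups stand apart for WNT5A, RNF43, ZNRF3, AXIN2 and TCF7L2, and overlap for WNT5B, AXIN1, TCF7 and LEF1, while NKD1 is at the level of a few counts.

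The 2 ligands are close paralogs, and WNT5A fell while WNT5B did not pass the test. WNT5A (ENSG00000114251; minus strand of chromosome 3, from 55465715 to 55490539 on GRCh38) was at 6.07, 5.10 and 6.04 CPM in CAF replicates 1, 2 and 3 and at 3.93, 3.41 and 3.81 CPM in the PAI-1 replicates. Every PAI-1 library lay below every CAF library. The mean fell from 5.74 ± 0.55 to 3.72 ± 0.27 CPM, a log2 fold change of -0.62 (SE 0.19, 95% interval -1.003 to -0.243, edgeR adjusted p = 0.00964). WNT5B (ENSG00000111186; plus strand of chromosome 12, from 1529891 to 1647243) was at 27.1, 32.4 and 31.9 CPM in the CAF libraries and at 28.9, 33.0 and 31.5 CPM in the PAI-1 libraries. These ranges overlap almost entirely. Its log2 fold change was 0.03 (SE 0.089, 95% interval -0.15 to 0.21, edgeR adjusted p = 0.824), so that a fall of more than 0.15 or a rise of more than 0.21 on the log2 scale lies outside the interval. The RefSeq table used (GRCh38.p14) held 2 starts of WNT5A, and the 250 bases before the inner one, shown because WNT5A is the ligand that fell and this stretch lies outside every exon annotated by GENCODE, read as follows on the minus strand at chr3:55481399-55481648. It held none of the TCF motifs described further on, so no letter is in capitals.
WNT5A, inner start: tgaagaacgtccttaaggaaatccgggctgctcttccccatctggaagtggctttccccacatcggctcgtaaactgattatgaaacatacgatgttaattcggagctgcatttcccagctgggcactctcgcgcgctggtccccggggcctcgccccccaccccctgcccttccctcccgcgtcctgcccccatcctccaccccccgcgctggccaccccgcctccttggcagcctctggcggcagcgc

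The paired ubiquitin ligases went in opposite directions. RNF43 (ENSG00000108375; minus strand of chromosome 17, from 58352500 to 58417595) was at 2.85, 2.08 and 2.88 CPM in the CAF libraries and at 1.15, 0.944 and 1.03 CPM in the PAI-1 libraries. Its lowest CAF value was above its highest PAI-1 value. RNF43 fell to 0.404 of its CAF level, with a log2 fold change of -1.31 (SE 0.32, 95% interval -1.96 to -0.67, edgeR adjusted p = 0.00149), on 120 counts in the CAF group and 46 in the PAI-1 group. ZNRF3 (ENSG00000183579; plus strand of chromosome 22, from 28883592 to 29057487) was at 11.1, 10.5 and 12.7 CPM in the CAF libraries and at 16.99, 14.9 and 14.8 CPM in the PAI-1 libraries. Here all PAI-1 libraries were the higher ones. ZNRF3 rose 1.36-fold, with a log2 fold change of 0.45 (SE 0.12, 95% interval 0.20 to 0.70, edgeR adjusted p = 0.00429). The level of RNF43 is uncertain, because 5546 of its 7505 exonic bases lie in exons of other genes, 4326 of them in AC004687.2 on the same strand, which had 4 counts in the CAF group and 9 in the PAI-1 group. SUPT4H1, a gene of the transcription machinery active in most cells, shares 1325 of its 2079 exonic bases with AC004687.2 and had 3 and 1 counts, so reads from shared stretches may be missing from the RNF43 value. The sequence before the outer RNF43 start is shown because RNF43 is the ligase that fell. The part outside annotated exons is 189 bases on the minus strand at chr17:58417596-58417784 (GRCh38.p14), without a TCF motif.
RNF43, outer start: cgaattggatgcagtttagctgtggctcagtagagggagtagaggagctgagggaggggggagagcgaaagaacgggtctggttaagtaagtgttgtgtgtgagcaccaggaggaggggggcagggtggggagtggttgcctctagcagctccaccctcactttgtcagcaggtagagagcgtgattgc

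AXIN2 had the largest difference of the genes followed. AXIN2 (ENSG00000168646; minus strand of chromosome 17, from 65528563 to 65561647), the scaffold that the pathway induces as its own brake, was at 6.07, 6.55 and 7.41 CPM in the CAF libraries and at 2.03, 1.82 and 2.46 CPM in the PAI-1 libraries. The highest PAI-1 library was below 3 CPM and the lowest CAF library above 6 CPM. AXIN2 fell to 0.318 of its CAF level, from 6.68 ± 0.68 to 2.10 ± 0.33 CPM (log2 fold change -1.65, SE 0.21, 95% interval -2.08 to -1.24, edgeR adjusted p = 8.71e-08). From the lowest log2 fold change upwards, AXIN2 was at rank 34 of the 14960 genes tested. Of its 5226 exonic bases, 1316 are shared with AC004805.1 on the same strand, which had no counts. AXIN1 (ENSG00000103126; minus strand of chromosome 16, from 287440 to 352673), the constitutive scaffold, was at 44.7, 41.5 and 40.8 CPM in the CAF libraries and at 42.0, 43.5 and 48.2 CPM in the PAI-1 libraries. Its groups overlap. The log2 fold change of AXIN1 was 0.08 (SE 0.077, 95% interval -0.08 to 0.23, edgeR adjusted p = 0.491).

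NKD1 (ENSG00000140807; plus strand of chromosome 16, from 50548330 to 50649249) had 1, 1 and 0 counts in the CAF libraries and 1, 6 and 2 in the PAI-1 libraries. The highest value comes from PAI-1 replicate 2, and all others are at or under 3 counts. No difference was detectable at this depth. Without the filter NKD1 had an edgeR adjusted p = 0.396. Its paralog NKD2 was measurable, at 14.9 ± 0.51 CPM in the CAF group and 12.03 ± 1.54 CPM in the PAI-1 group (log2 fold change -0.31, edgeR adjusted p = 0.0471). That call was lost under 7 of 14 alternative settings. Among these was leaving out any 1 of CAF replicates 1, 2 and 3 or PAI-1 replicates 1 and 2 (edgeR adjusted p from 0.0689 to 0.176). Another was DESeq2 (adjusted p = 0.0802).

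Genes with a profile most like AXIN2 were sought among 10952 genes of at least 5 CPM, by the distance between centred log2 CPM over the 6 libraries. The nearest was KLHL24, at a distance of 0.208, followed by TP53INP1 at 0.38, TENT5C at 0.447, BRD8 at 0.46 and KIF20A at 0.479. Over the 6 libraries their Pearson correlations with AXIN2 were 0.979 to 0.995, a value that mainly carries the difference between the 2 groups. None of them stands in the WNT lists used here. KLHL24 went from 44.8 to 14.1 CPM on average and TP53INP1 from 19.0 to 5.52 CPM.

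**Figure D2:**
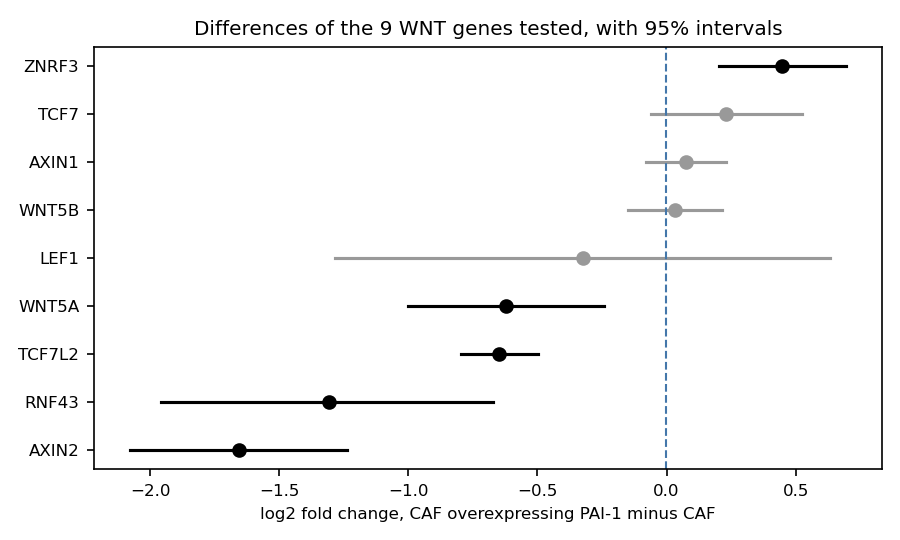
Log2 fold change (horizontal axis; PAI-1 group minus CAF group) with its 95% interval for the 9 genes tested, black where the adjusted p is under 0.05 and grey otherwise. The blue dashed line is the median of all genes tested; AXIN2 at -1.65 and RNF43 at -1.31 lie farthest from it, and the wide interval of LEF1 goes with its low counts.

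Of the 3 DNA-binding factors, TCF7L2 fell and the others did not pass the test. TCF7L2 (ENSG00000148737; plus strand of chromosome 10, from 112950250 to 113167678), the main TCF of intestinal and many epithelial cells, was at 62.3, 59.3 and 57.97 CPM in the CAF libraries and at 40.9, 37.8 and 35.9 CPM in the PAI-1 libraries. The gap between the groups was wider than the range within either. TCF7L2 fell to 0.638 of its CAF level, with a log2 fold change of -0.65 (SE 0.074, 95% interval -0.80 to -0.50, edgeR adjusted p = 1.36e-08). TCF7 (ENSG00000081059; plus strand of chromosome 5, from 134114711 to 134151865), known from T cells and as a pathway target, was at 15.1, 10.1 and 12.2 CPM in the CAF libraries and at 17.9, 12.8 and 13.2 CPM in the PAI-1 libraries. Replicate 1 was the highest in each group, and the groups overlap. The log2 fold change of TCF7 was 0.23 (SE 0.14, 95% interval -0.06 to 0.53, edgeR adjusted p = 0.231), and leaving out single libraries moved it between 0.06 (without PAI-1 replicate 1) and 0.40 (without CAF replicate 1). TCF7 shares 210 exonic bases with SKP1, a far more abundant gene on the other strand, and no source used here says whether the counting used strand.

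LEF1 (ENSG00000138795; minus strand of chromosome 4, from 108047545 to 108168956), a factor that beta-catenin itself induces in many tissues, was close to the limit of detection. It had 9, 14 and 15 counts in the CAF libraries and 16, 6 and 7 in the PAI-1 libraries, which overlap. The log2 fold change was -0.32, with a 95% interval from -1.29 to 0.63 (SE 0.47, edgeR adjusted p = 0.64). A difference within that interval was not detectable at this depth.

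A TCF motif was found before 1 start each of TCF7L2 and TCF7. The motif searched was AACAAAG or ATCAAAG or TACAAAG or TTCAAAG, on both strands, in the 250 bases before each RefSeq start (GRCh38.p14). These words share the core CAAAG and differ before it. Of 35116 windows, 11.96% held at least 1 such word, and of the 13 windows that matched 7 of the 10 genes, 2 did (15.4%), which is near that background. Both windows are printed with the motif in capitals, on the plus strand. In TCF7L2, which fell, the word lies on the opposite strand and begins 133 bases before an inner start, at chr10:113126383-113126632. In TCF7, which did not pass the test, it begins 50 bases before a start at chr5:134123368-134123617. Counts per gene do not show which start was used.
TCF7L2, inner start: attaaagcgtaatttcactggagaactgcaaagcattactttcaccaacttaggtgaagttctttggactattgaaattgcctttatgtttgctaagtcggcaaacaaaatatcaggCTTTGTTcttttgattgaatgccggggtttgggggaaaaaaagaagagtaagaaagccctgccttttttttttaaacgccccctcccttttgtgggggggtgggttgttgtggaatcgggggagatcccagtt
TCF7, inner start: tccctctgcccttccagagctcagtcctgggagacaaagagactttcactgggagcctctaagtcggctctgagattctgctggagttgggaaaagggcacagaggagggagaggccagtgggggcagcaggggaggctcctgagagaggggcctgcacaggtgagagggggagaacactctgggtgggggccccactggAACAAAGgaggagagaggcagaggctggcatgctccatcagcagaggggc

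Ratios between related genes within a library do not depend on how the libraries were scaled. The log2 ratio of AXIN2 to AXIN1 counts was -2.88, -2.66 and -2.45 in the CAF libraries and -4.35, -4.56 and -4.28 in the PAI-1 libraries, a difference of -1.73. For RNF43 to ZNRF3 it was -1.95, -2.31 and -2.13 against -3.85, -3.93 and -3.80, also a difference of -1.73. Both ratios thus went to 0.30 of their CAF value, without overlap between the groups. WNT5A to WNT5B went from -2.40 ± 0.25 to -3.06 ± 0.20 and TCF7 to TCF7L2 from -2.28 ± 0.25 to -1.40 ± 0.19 (SD, n = 3 each), again without overlap. LEF1 to TCF7L2, at -6.16 ± 0.54 and -5.91 ± 0.62, overlapped. In a two-sided exact permutation test the first 4 pairs had p = 0.1, which is the smallest that 3 against 3 libraries allow, and LEF1 to TCF7L2 had p = 0.7 (0.125 and 0.7 adjusted over the 5 pairs).

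**Figure D3:**
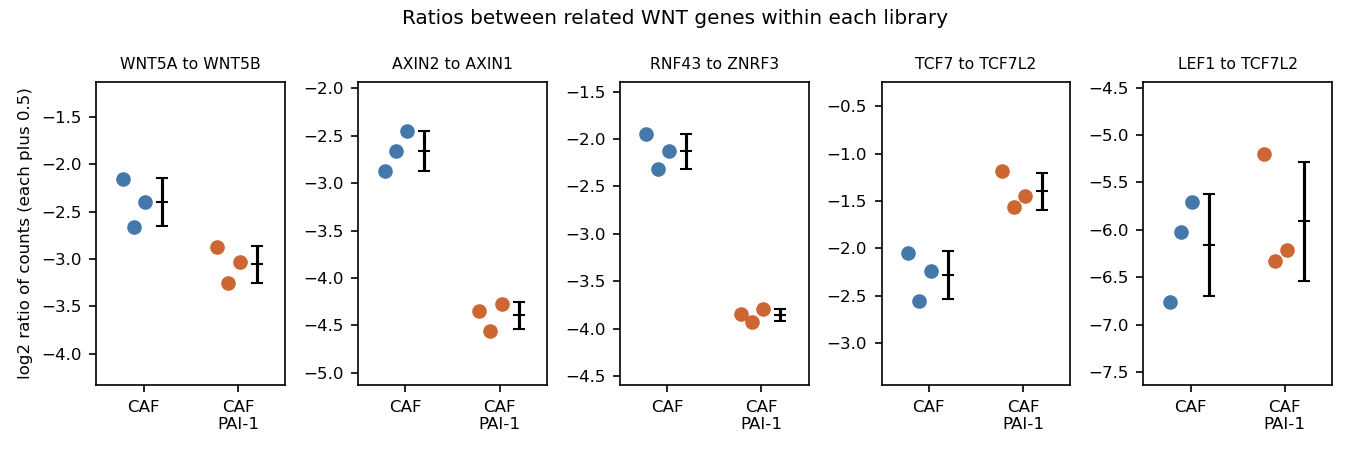
Log2 ratio of the counts of 2 related genes, each plus 0.5, in each library (vertical axes of equal span), for CAF (blue) and CAF overexpressing PAI-1 (orange), with the mean and SD over 3 libraries in black. The groups stand apart in the first 4 panels, with differences of -0.65, -1.73, -1.73 and 0.88, and overlap for LEF1 to TCF7L2.

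Levels of different genes were compared as mean CPM per kilobase of annotated exon. In the CAF group the order was TCF7L2 at 8.89 ± 0.33, WNT5B at 7.09 ± 0.68, AXIN1 at 5.65 ± 0.28, ZNRF3 at 1.64 ± 0.17, AXIN2 at 1.28 ± 0.13, TCF7 at 1.24 ± 0.25 and WNT5A at 0.776 ± 0.074 CPM per kilobase. RNF43, LEF1 and NKD1 came after these, at 0.347 ± 0.060, 0.156 ± 0.050 and 0.0024 ± 0.0021. Only AXIN2 and TCF7 were neighbours in this order whose libraries overlapped. In the PAI-1 group the third was TCF7L2, at 5.67 ± 0.37 CPM per kilobase, behind WNT5B at 7.23 ± 0.48 and level with AXIN1 at 5.96 ± 0.43, whose libraries it overlapped. The seventh was AXIN2, at 0.402 ± 0.062, overlapping WNT5A at 0.503 ± 0.036, and RNF43 at 0.139 ± 0.014 overlapped LEF1 at 0.123 ± 0.069. Transcript lengths in use are unknown, and counts per gene do not show where in a gene the reads lay. Higher values follow if all counts of a gene came from its exonic bases outside other genes. They are not upper limits, because a transcript in use may cover fewer of those bases. With 1959 such bases, RNF43 would be at 1.33 CPM per kilobase in the CAF group and 0.532 in the PAI-1 group. That is above WNT5A in the CAF group and close to it in the PAI-1 group. With 3910 such bases, AXIN2 would be at 1.71 and 0.537 CPM per kilobase. Those values are close to ZNRF3 in the CAF group and to WNT5A in the PAI-1 group.

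The spread between replicates was close to counting noise for some of the genes and above it for others. In the CAF group the coefficient of variation of AXIN2 was 10.2%, where its counts alone give 9.89%, and that of WNT5A was 9.59%, where counting gives 10.6%. TCF7 varied by 20.03% in the CAF group and 19.6% in the PAI-1 group, where counting gives 7.20% and 6.82%. WNT5B varied by 9.61% and 6.63%, where counting gives 4.62% and 4.68%. For RNF43 and LEF1 in the CAF group the values were 17.4% and 32.2%, near the 15.8% and 28.1% of counting. In the PAI-1 group LEF1 varied by 56.1%, above the 32.2% of counting, and RNF43 by 9.93%, below the 25.5% of counting.

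The rest of the pathway was read from 9 lists by role. Besides the 10 genes they hold 131 genes, of which 94 were tested. Among these, 11 rose (11.7%) and 20 fell (21.3%), beside 17.2% and 15.0% of all genes tested, with a median log2 fold change of -0.04. With libraries scaled by their size alone, 10 rose and 31 fell, a scaling under which 36.6% of all changed genes were higher in place of 53.5%.

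Of 17 further ligands 8 were tested, of which WNT7B rose and WNT9A fell (12.5% each, beside 17.2% and 15.0% of all genes). WNT7B, the most abundant ligand gene and one of the canonical type, was at 127, 126 and 123 CPM in the CAF libraries and at 193, 159 and 175 CPM in the PAI-1 libraries (log2 fold change 0.49, SE 0.062, edgeR adjusted p = 1.27e-07). WNT9A fell from 48.6 ± 1.97 CPM with CAF to 34.7 ± 0.71 CPM with PAI-1 (log2 fold change -0.49, SE 0.075, edgeR adjusted p = 3.78e-06). PORCN, the enzyme that attaches the lipid to every WNT, rose from 14.4 ± 1.595 to 23.6 ± 1.6002 CPM. It was the only 1 of 6 release genes tested that changed (16.7% higher, near the 17.2% of all genes, and none lower, beside 15.0%). WLS, the carrier of WNT proteins to the cell surface, had a log2 fold change of 0.05 and TMED5 of -0.10.

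Of 15 receptors and co-receptors tested, 5 fell (33.3%, beside 15.0% of all genes) and 1 rose (6.7%, beside 17.2%). FZD2, a receptor that can bind WNT5A, fell from 12.2 ± 0.93 to 6.37 ± 0.81 CPM (log2 fold change -0.93, SE 0.14, edgeR adjusted p = 3.83e-06), and FZD4 fell by 0.55 on the log2 scale. FZD8 was the one that rose, from 3.68 ± 0.55 to 7.59 ± 0.75 CPM (log2 fold change 1.05, SE 0.18, edgeR adjusted p = 2.06e-05). LRP5, the abundant co-receptor, fell from 493 ± 16.2 to 417 ± 15.1 CPM, and PTK7, a polarity co-receptor, had -0.51. FZD9 had -0.60, a call that was lost when CAF replicate 1, 2 or 3 or PAI-1 replicate 1 or 2 was left out (edgeR adjusted p from 0.0663 to 0.139). It was also lost without the low-count filter (0.101), without the robust fit (0.0508), in DESeq2 (0.0949) and in limma-voom (0.0535). RYK, a WNT5A receptor, had a log2 fold change of 0.08 and did not pass. FZD6, FZD7 and FZD5, the most abundant Frizzled genes, had 0.13, -0.18 and 0.12 (edgeR adjusted p = 0.176, 0.087 and 0.435). They did not pass. ROR1 and ROR2 had -0.13 and -0.04 and did not pass either (edgeR adjusted p = 0.124 and 0.89). The same held for LRP6, FZD1 and FZD3.

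The R-spondin arm that controls RNF43 and ZNRF3 held 1 further expressed gene. LGR4, the R-spondin receptor, fell from 172 ± 5.05 to 133 ± 3.66 CPM (log2 fold change -0.37, SE 0.056, edgeR adjusted p = 3.26e-06). RSPO1 to RSPO4, LGR5 and LGR6 stayed under 1 CPM in every library. Among 7 secreted or membrane inhibitors tested, SFRP1, a ligand-binding decoy, rose from 46.3 ± 3.62 to 61.2 ± 2.79 CPM, while SHISA2, which holds Frizzled inside the cell, fell from 6.13 ± 0.37 to 3.64 ± 0.52 CPM. DKK1, an LRP antagonist, had a log2 fold change of -0.15 (249 ± 17.3 to 225 ± 9.89 CPM, edgeR adjusted p = 0.042). That call was lost when CAF replicate 2 or 3 or PAI-1 replicate 1 or 3 was left out (edgeR adjusted p from 0.0592 to 0.301). It was also lost without the low-count filter (0.0807) and without the robust fit (0.0507). TPBG had 0.12 and did not pass.

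Inside the cell, of 21 further genes of the dishevelled and destruction complex list tested, 4 rose (19.0%) and 5 fell (23.8%), beside 17.2% and 15.0% of all genes, with a median log2 fold change of -0.05. CSNK1A1, the kinase that primes beta-catenin for destruction, rose from 207 ± 3.78 to 306 ± 7.86 CPM (log2 fold change 0.56, SE 0.053, edgeR adjusted p = 1.91e-10), and CSNK1D rose by 0.21. AMER1, another of the 4 that rose, had groups that overlap. Its call was lost without CAF replicate 2 (edgeR adjusted p = 0.0692) and without PAI-1 replicate 1 (0.0606). RNF146 and TNKS, which act together to degrade axin proteins, fell by 0.45 and 0.38 on the log2 scale, the latter by 0.23 without PAI-1 replicate 2. TNKS2, a relative of TNKS and another of the 5, lost its call when CAF replicate 1 or 3 or PAI-1 replicate 2 or 3 was left out (edgeR adjusted p up to 0.0878). CTNNB1, the gene of beta-catenin, was at 294, 303 and 304 CPM in the CAF libraries and at 321, 301 and 321 CPM in the PAI-1 libraries. These overlap, and CTNNB1 did not pass (log2 fold change 0.07, SE 0.053, edgeR adjusted p = 0.362).

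In the nucleus, 3 of 14 further partners fell (21.4%, beside 15.0% of all genes) and none rose. HBP1, a repressor known to block TCF binding, fell from 36.1 ± 3.82 to 17.4 ± 2.95 CPM (log2 fold change -1.05, SE 0.11, edgeR adjusted p = 1.48e-09). TLE3 had -0.19, a call that was lost with no low-count filter (edgeR adjusted p = 0.0595) and when replicate 1 or 3 of either group was left out (up to 0.131). TLE4, a co-repressor of TCF factors like TLE3, fell from 8.16 ± 0.56 to 5.28 ± 0.27 CPM (log2 fold change -0.63). The abundant BCL9L, a beta-catenin co-activator, had -0.11 and AES, a short relative of TLE, 0.0011; neither passed, although BCL9L was called lower without PAI-1 replicate 1 (-0.21, edgeR adjusted p = 0.0122).

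Of 13 further known beta-catenin targets tested, 3 rose (23.1%) and 2 fell (15.4%), shares near the 17.2% and 15.0% of all genes, with a median log2 fold change of 0.04. CCND1, the gene of cyclin D1, rose from 313 ± 12.2 to 533 ± 38.2 CPM (log2 fold change 0.77, SE 0.057, edgeR adjusted p = 7.98e-13), and SOX9 rose by 0.34 on the log2 scale. ENC1 had 0.20, a call that was lost with library size alone (edgeR adjusted p = 0.0721) and without CAF replicate 3 (0.0848). DKK1, given above, and BMP4 were the lower ones. BMP4 fell from 56.1 ± 2.12 to 29.1 ± 2.66 CPM (log2 fold change -0.94, SE 0.079, edgeR adjusted p = 1.62e-11). CD44, the most abundant of them at 1353 ± 37.3 and 1338 ± 51.4 CPM, had -0.02 and did not pass. LGR5, SP5, ASCL2 and APCDD1, targets used as reporters in other tissues, were under 1 CPM in every library.

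Planar polarity genes, which act in the branch that WNT5A uses, had 3 lower (17.6%, near the 15.0% of all genes) and none higher of 17 further genes tested. CELSR2, a polarity cadherin, was at 15.5, 15.8 and 16.0 CPM in the CAF libraries and at 7.72, 7.41 and 9.76 CPM in the PAI-1 libraries (log2 fold change -0.92, SE 0.13, edgeR adjusted p = 8.67e-07). VANGL1 fell from 55.6 ± 3.90 to 40.0 ± 2.94 CPM, and the third was FZD2, given with the receptors. SCRIB and CELSR1 were the most abundant of the list and did not pass the test, at log2 fold changes of 0.07 and -0.05.

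**Figure D4:**
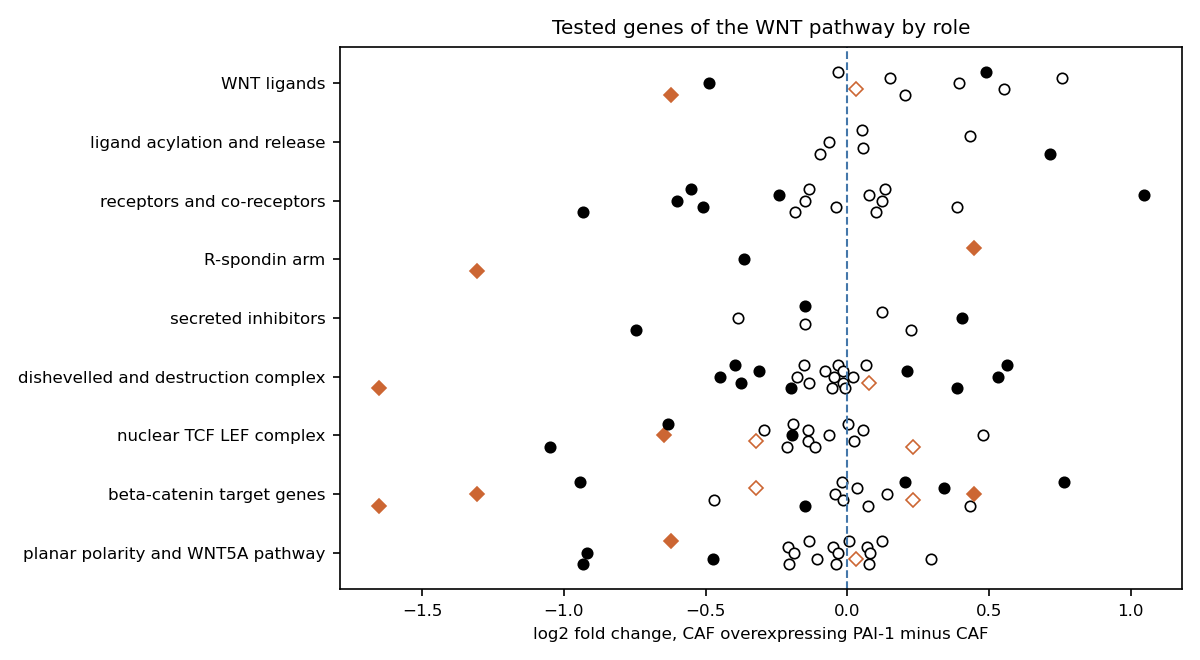
Log2 fold change (horizontal axis, PAI-1 group minus CAF group) of each tested gene in 9 lists of WNT pathway roles. Orange diamonds are the 9 tested of the 10 genes followed (NKD1 is not drawn) and black circles the others, filled where the adjusted p is under 0.05. Vertical offsets only separate points, and a gene in several lists appears in each. AXIN2 and RNF43 lie lowest and FZD8 highest, and the blue dashed line is the median of all genes tested.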

How the data were processed

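Poly(A) RNA of 6 Panc-1 libraries was sequenced, 3 per group by the titles. The authors deposited whole-number counts per gene; tools listed in the submitters' processing notes are RSEM, Bowtie2 and BWA, with build hg19, and the counting step and strand setting are not given in the sources used here. All 58735 identifiers are in GENCODE release 29 (GRCh38), whose coordinates and exon lengths identify genes; promoter windows are RefSeq's.

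Genes were tested with edgeR 4.0.16 (R 4.3.3): filterByExpr (minimum count 10, minimum total 15), TMM, robust glmQLFit, glmQLFTest, Benjamini-Hochberg over 14960 genes. Alternatives were RLE, library size alone, 2 other filters, DESeq2 1.42.0, limma-voom 3.58.1, no robust fit, a replicate block and leaving out each library. On simulated data for this comparison with 14729 genes, edgeR found 82 of 96 genes with a 2-fold difference, 59 of 95 with a 1.5-fold difference and 7 false ones. The simulation changed 200 genes, far fewer than the 4810 called in the data, so its shares found need not hold for the data.

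The 10 genes and all lists were chosen with earlier results of these data known. Further genes named were, per list, up to 4 that changed by at least 0.58 (log2) and the 2 most abundant. FZD4, PTK7, SFRP1, CSNK1A1, AMER1, RNF146, TNKS, TNKS2, TLE3, ENC1, SOX9, VANGL1, NKD2, LGR5, SP5, ASCL2 and APCDD1 were named after their values were seen. So were FZD1, FZD3, FZD5, FZD6, FZD7, LRP6, ROR1 and ROR2. Markers named outside that rule were KRT19, KRT7, CLDN4, EPCAM, CDH1, ESRP1, OVOL1, SPARC, MMP2, COL3A1, TAGLN, COL6A3, THY1, ACTA2, KRT5, KRT14, KRT6A, DSG3, DSC3 and the defining fibroblast genes. The labels call the replicates biological but do not say that they came from separate cultures, so the spread behind the p-values may be technical. No pair of libraries within a group agreed within sampling noise (chi-square per degree of freedom 2.58 to 9.51). Intervals cover the spread between libraries and counting error. Every sample column of the table was used. The level of the overexpressed gene is not reported here.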

Additional observations from a re-analysis of the deposited data

How the results depend on the processing

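The calls of AXIN2, RNF43, TCF7L2, WNT5A and ZNRF3 held under all 14 alternatives, with log2 fold changes of -1.78 to -1.57, -1.45 to -1.23, -0.72 to -0.60, -0.70 to -0.57 and 0.38 to 0.53. WNT5A came nearest to losing its call (adjusted p up to 0.0429). AXIN1, WNT5B, TCF7 and LEF1 were not called in any that could test them; LEF1 did not pass the filter of 1 CPM in 3 libraries. WNT5B changed sign with library size alone (-0.035) and with single libraries left out (-0.048 to 0.080), and LEF1 to TCF7L2 ranged from -0.11 to 0.48 with single libraries left out. With library size alone 31 further pathway genes were lower in place of 20; that scaling moved the median of all genes to -0.07. Genes near 0 changed sign: AES had -0.0030 with RLE, -0.066 with library size alone, -0.0052 with the 1 CPM filter, -0.0031 in DESeq2 and -0.025 to 0.014 with single libraries left out. With library size alone CTNNB1 had -0.00067, WLS -0.012 and the pancreatic marker MUC1 -0.0498. With single libraries left out CD44 ranged from -0.051 to 0.0058, CELSR1 from -0.12 to 0.031 and MUC1 from -0.037 to 0.13. Of 49 further genes followed, 8 lost a call under at least 1 alternative. The replicate number as a block gave 5069 changed genes in place of 4810 and the same calls for the 10 genes. Over all genes tested, same-numbered libraries did not deviate together (correlations 0.0023, 0.012 and 0.0063), so the numbers were not taken as pairs. That check includes genes of few counts and cannot settle whether the libraries were paired. Depth limits LEF1 and NKD1, which had 67 and 11 counts in all.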
